A study of Mus musculus with 12 samples.

Results

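The 38 genes described here encode proteins that make ribosomes. They were chosen by symbol and all 38 were found among the 27998 genes listed for each library. The rule that chose them uses no measured value, but the list was drawn up with earlier results of these data known. By role, 5 act in the transcription of rRNA (Polr1a, Polr1b, Myc, Mybbp1a and Ddx21) and 4 are abundant nucleolar proteins, here called the nucleolar scaffold (Ncl, Npm1, Nolc1 and Gnl3). A further 7 belong to the small nucleolar ribonucleoproteins, or snoRNPs (Fbl, Nop56, Nop58, Rrp9, Dkc1, Gar1 and Nhp2). The small ribosomal subunit is assembled by 11 (Utp20, Heatr1, Wdr43, Wdr75, Nop14, Bysl, Rrp12, Nob1, Tsr1, Ltv1 and Ddx10) and the large subunit by the other 11 (Bop1, Pes1, Wdr12, Nop2, Nop16, Noc2l, Nip7, Ebna1bp2, Rrs1, Ddx18 and Rrp1b).

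Mammary gland cells of C57BL/6J mice aged 43 weeks were profiled by droplet-based single-cell RNA-seq in 12 groups, with 1 library per group and with the lymph nodes removed. The Intact group did not receive 4-vinylcyclohexene diepoxide (VCD), which destroys small ovarian follicles. The other groups all received VCD at 160 mg/kg per day for 15 days and serve as a model of menopause. VCD_Vehicle received sesame oil, VCD_E2 received 17β-estradiol (E2) at 1 µg per animal per day in the last week, and VCD_E2_P4 received E2 with progesterone (P4) at 1 mg per animal per day. VCD_E2_ICI received E2 and a single dose of 5 mg of ICI, which degrades the estrogen receptor. VCD_Vehicle_NormEnv is a second vehicle group whose label is not explained in the sources used here. A further 6 groups ate food with polybrominated diphenyl ethers (PBDEs), flame retardants that act on hormone signaling. Their names are VCD_Low_PBDE, VCD_Low_E2, VCD_Low_E2_P4, VCD_High_PBDE, VCD_High_PBDE_E2 and VCD_High_PBDE_E2_P4. The low level was 0.05 mg/kg per day of the main congener for 20 weeks and the high level 1 mg/kg per day for 1 week, so dose and duration cannot be told apart. Groups with a stated PBDE dose of 0 ate matched food with DMSO. For VCD_Vehicle_NormEnv no PBDE dose is recorded. Whether the cells of a library came from 1 animal or from several is not given in the sources used here.

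Ribosome biogenesis begins in the nucleolus, where RNA polymerase I copies the rRNA genes into a long precursor. The snoRNPs guide the chemical modification of this precursor, and assembly factors fold it, cut it and load it with ribosomal proteins until the small and large subunits leave for the cytoplasm. The transcription factor Myc is known to raise many of these genes through a DNA motif called the E-box, and estrogen is known as a growth signal of the mammary epithelium, while the fibroblasts around the ducts build its matrix.

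The promoters of 4 members are shown because Nop58 and Nop14 had the largest hormone differences below, Wdr43 fell in Fib_0-like cells, and Pes1 did not pass the test there. Each stretch runs from 100 bases before to 30 bases after the transcription start given by RefSeq on GRCm38.p6, 5′ to 3′ on the strand of the gene, with the E-box CACGTG in capitals. GENCODE M21 places the start of Wdr43 and of Nop58 further upstream.
Wdr43, chr17:71616115-71616244, plus strand: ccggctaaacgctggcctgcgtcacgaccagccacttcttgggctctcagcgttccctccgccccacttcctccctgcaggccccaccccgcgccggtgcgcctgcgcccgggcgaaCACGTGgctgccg
Pes1, chr11:3963875-3964004, plus strand: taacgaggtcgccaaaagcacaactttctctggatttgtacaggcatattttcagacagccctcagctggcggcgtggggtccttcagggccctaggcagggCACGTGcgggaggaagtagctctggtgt
Nop58, chr1:59684906-59685035, plus strand: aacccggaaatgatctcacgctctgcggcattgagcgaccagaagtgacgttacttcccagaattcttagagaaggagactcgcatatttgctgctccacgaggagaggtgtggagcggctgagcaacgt
Nop14, chr5:34660119-34660248, minus strand: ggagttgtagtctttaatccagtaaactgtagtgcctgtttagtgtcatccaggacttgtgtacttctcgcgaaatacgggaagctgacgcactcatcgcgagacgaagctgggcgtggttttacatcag

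The motif CACGTG reads the same on both strands and was searched from 250 bases before to 50 bases after each start. RefSeq promoters were matched for 32 of the 38 members, and Myc, Rrp12, Bop1, Fbl, Npm1 and Rrs1 were not among them. The motif stood in the promoter of 7 of the 32 (21.9%), against 1175 of 10342 genes that were tested between populations and had a promoter (11.4%), and 2187 of all 27025 genes with a promoter (8.09%). Those 7 were Ltv1, Wdr43, Utp20 and Tsr1 of the small subunit, Pes1 and Nop2 of the large subunit, and Mybbp1a. Of these 7, Wdr43 alone passed the hormone test in any of the 5 cell populations below. The windows of Nop58 and Nop14, which passed, did not hold these letters. Nor did those of Dkc1 and Polr1b, which did not pass. Whether the motif goes with the hormone differences was not tested, and the share that passed among all genes with the motif is not given.

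Cells were assigned from markers that do not include the 38 genes. Cells with no UMI (unique molecular identifier, a tag that counts 1 RNA molecule) of Ptprc, Cd52, Cspg4, Krt14, Epcam and Pecam1 were taken as candidate fibroblasts and gated into 4 subsets by 6 markers each. This gave 11227 Fib_0-like and 6151 Fib_1-like cells, with 3537 cells called Fib_2-like and 3540 called Fib_3-like, beside 6455 immune cells. By the gate itself, Dpp4 was at 580.5 CPM (its UMIs per 1000000 UMIs of the summed cells) in Fib_0-like cells and Fabp4 at 3181 CPM in Fib_1-like cells. Tnc was at 224 CPM in the Fib_2-like cells and Gdf10 at 460.0 CPM for Fib_3-like. Col1a1 was at 55.1 CPM in immune cells and at 2705 to 9800 CPM in the fibroblast subsets. All 5 are gate markers, so their levels do not test the names. Not every marker set its subset apart, with Col15a1 of the Fib_1-like gate at 819 CPM there and at 779 CPM in Fib_2-like cells. The 12 libraries held 41737881 to 109224969 UMIs. VCD_Low_E2_P4 stood apart with 10006 barcodes, against 2497 to 5838 in the others, and libraries shared at most 15 barcodes by pair. When the cells were clustered without the 38 genes, cluster 15, led by hemoglobin genes such as Hbb-bs, held 203 of the 1670 Fib_0-like cells of VCD_Low_E2_P4, with 79 of its 925 Fib_1-like and 75 of its 507 Fib_3-like cells, and at most 10 cells of any of these subsets in each other library. The deposited file names mark 2 sets of libraries, with Intact, VCD_Vehicle, VCD_E2, VCD_E2_P4 and VCD_Low_PBDE in 1 set and the other 7 in the second. All libraries without PBDE in the comparison below are therefore in the first set and all with high PBDE in the second, and at the low level the library without hormone differs in set from both libraries with hormone.

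The hormone comparison asks how the genes differ between VCD mice with and without hormone. It sets the mean of E2 and E2 + P4 (6 libraries) against no hormone (3 libraries), with PBDE level as a second factor, in UMI counts summed per library and population. Since each group is 1 library, the 3 PBDE levels stand in for replicates, the spread is estimated from 4 residual degrees of freedom, and it may be technical. Adjusted p-values are from the quasi-likelihood test of edgeR with Benjamini-Hochberg adjustment over all genes tested. A change in CPM of summed cells cannot tell apart fewer cells that hold the RNA, less of it per cell, and more RNA of other genes per cell.

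In Fib_0-like cells, the subset that carries Dpp4 and Pi16, all 38 genes had a lower fitted level with hormone, and 13 of 38 (34.2%) fell past an adjusted p of 0.05, while none rose. Of all 12863 genes tested, 4.98% fell and 5.52% rose. The median log2 change of the 38 genes was -0.32, against -0.00 for all genes. In 15 of the 38 genes all 6 libraries with hormone lay below all 3 without, which held for 5.49% of all genes. The snoRNP genes gave the largest share, with 5 of 7 lower, followed by 2 of 4 scaffold genes, 3 of 11 small subunit genes, 1 of 5 genes of rRNA transcription and 2 of 11 large subunit genes. The roles were not tested against each other. The medians of the roles lay between -0.43 (scaffold) and -0.26 (large subunit). The Fib_0-like cells were also spread differently over the clusters with hormone. Cluster 1, led by Ctla2a and Ifit3, held 1.58 to 6.79% of them in the 3 libraries without hormone and 9.67 to 29.4% in the 6 with hormone, and cluster 3, led by Krtdap and Dact2, held 12.04 to 18.7% and 5.39 to 11.0%. The libraries without hormone also differed among themselves. Cluster 6, led by Mrgprg and Ptgs2, held 606 of 1454 Fib_0-like cells in VCD_Low_PBDE, 340 of 1037 in VCD_High_PBDE and 56 of 692 in VCD_Vehicle, and 5.15 to 23.7% with hormone. In the Fib_0-like cells of cluster 0 alone, led by Akr1c18 and Il33, 7 of the 38 genes fell and none rose, against 2.32% of all genes lower, and the median was -0.37. Nop58 gave -0.77 there (adjusted p = 0.00366) and Fbl -0.50 (adjusted p = 0.00709), and Nop56, Nop14, Ddx21, Gnl3 and Nolc1 passed too.

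**Figure D1:**
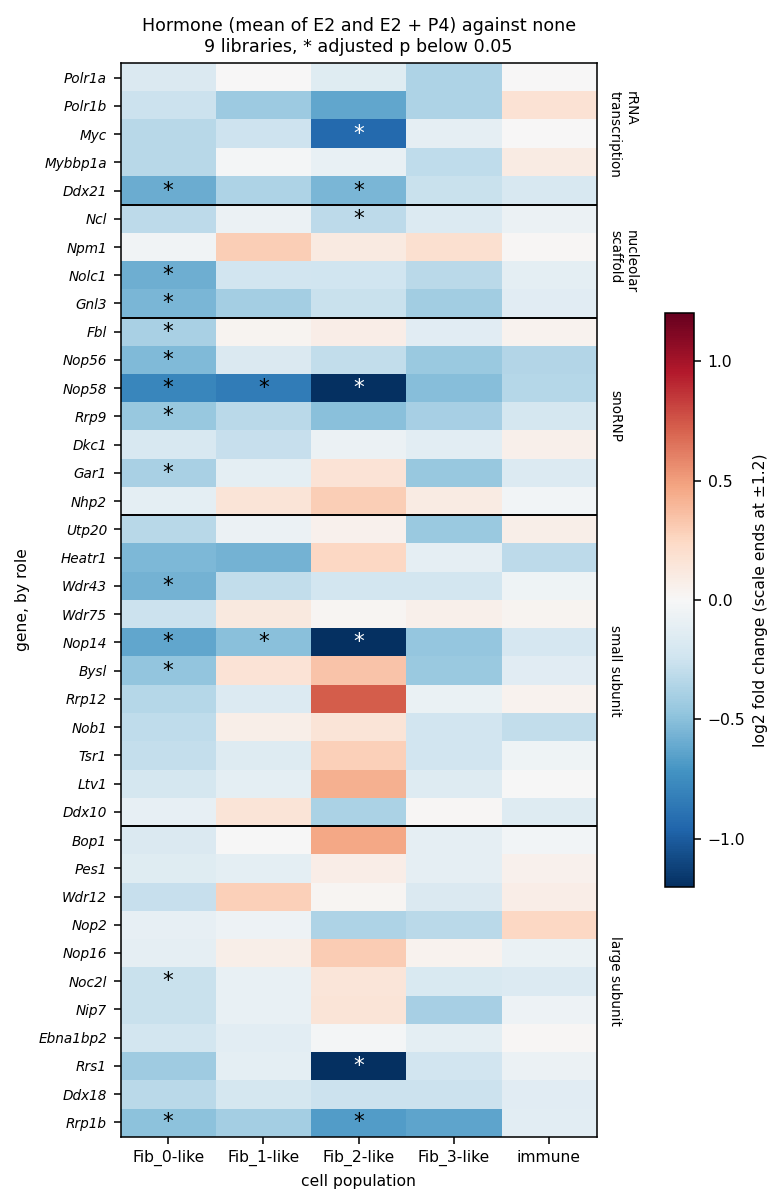
Log2 fold change of each of the 38 genes (rows, by role) with hormone against none in 5 cell populations (columns), from 9 libraries. Stars mark an adjusted p below 0.05, and the color scale ends at ±1.2. The Fib_0-like column is blue in all 38 rows with 13 stars, and the Fib_2-like column holds 7 stars with several genes on the red side.

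Among the genes of rRNA transcription, Ddx21, a nucleolar RNA helicase, was at 68.7, 87.4 and 55.5 CPM in the Fib_0-like cells of VCD_Vehicle, VCD_Low_PBDE and VCD_High_PBDE, and at 43.5 to 50.2 CPM (median 46.9) in the 6 libraries with hormone. The groups did not overlap, and the log2 change was -0.60 ± 0.12 (SE, adjusted p = 0.0251). Myc was at 197, 271 and 224 CPM without hormone and at 140.2 to 242 CPM (median 191) with it. These groups overlapped and the difference of -0.34 ± 0.10 did not pass (adjusted p = 0.0769). Polr1b, the second largest subunit of RNA polymerase I, was low in all 9 libraries compared (3.56 to 6.32 CPM) and gave -0.26 ± 0.22 (adjusted p = 0.486). Mybbp1a, a nucleolar protein that binds Myb, had no overlap, at 27.1 to 34.0 CPM without hormone and 23.0 to 26.7 CPM with it, and gave -0.34 ± 0.09 (adjusted p = 0.0523).

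Of the nucleolar scaffold, Nolc1, which shuttles snoRNPs to the nucleolus, was at 37.7, 39.0 and 33.1 CPM without hormone and at 22.0 to 26.8 CPM (median 25.5) with it. This is a log2 change of -0.59 ± 0.09 (adjusted p = 0.0105) with no overlap. Gnl3 (nucleostemin), a nucleolar GTPase, was at 80.3, 89.5 and 63.0 CPM against 47.9 to 60.8 CPM (median 52.5), a change of -0.55 ± 0.10 (adjusted p = 0.017) with no overlap. The most abundant scaffold genes differed less. Ncl (nucleolin) was at 271, 323 and 234 CPM against 193 to 240.3 CPM, overlapped, and gave -0.32 (adjusted p = 0.0558). Npm1 (nucleophosmin) was at 529, 537 and 498 CPM without hormone and at 473 to 548 CPM with it, and its difference of -0.05 ± 0.06 was within the spread between libraries (adjusted p = 0.683). Npm1 has many processed pseudogenes, so reads that match several copies could be lost from its count.

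The box C/D snoRNPs methylate rRNA, and 3 of their core genes fell. Nop58, a core protein of the particle, was at 120.3, 146 and 109 CPM without hormone and at 53.6 to 95.7 CPM (median 80.8) with it. All 6 libraries with hormone were below all 3 without, and the log2 change of -0.78 ± 0.09 (adjusted p = 0.00556) was the largest among the 38 genes in this subset. Nop56, its partner, was at 50.9, 52.4 and 46.5 CPM against 30.7 to 42.3 CPM (median 34.5), which is -0.53 ± 0.08 (adjusted p = 0.0111). Fbl (fibrillarin), the methyltransferase of the same particle, was at 87.4, 84.2 and 81.5 CPM against 59.0 to 71.7 CPM (median 66.6). Its change of -0.39 ± 0.05 (adjusted p = 0.00768) came again with no overlap. Rrp9, a protein of the U3 snoRNP that starts small subunit processing, was at 16.9, 17.4 and 14.3 CPM against 9.19 to 14.2 CPM and gave -0.46 ± 0.08 (adjusted p = 0.0133).

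The H/ACA snoRNPs, which convert uridine to pseudouridine, were less uniform. Gar1 was at 31.4, 27.1 and 23.5 CPM without hormone and at 18.5 to 22.7 CPM (median 21.3) with it, without overlap, and fell by 0.39 on the log2 scale (SE 0.08, adjusted p = 0.0249). Dkc1 (dyskerin), the catalytic subunit, was at 24.6, 23.0 and 21.5 CPM against 19.3 to 23.3 CPM, overlapped, and gave -0.19 ± 0.08 (adjusted p = 0.142).

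**Figure D2:**
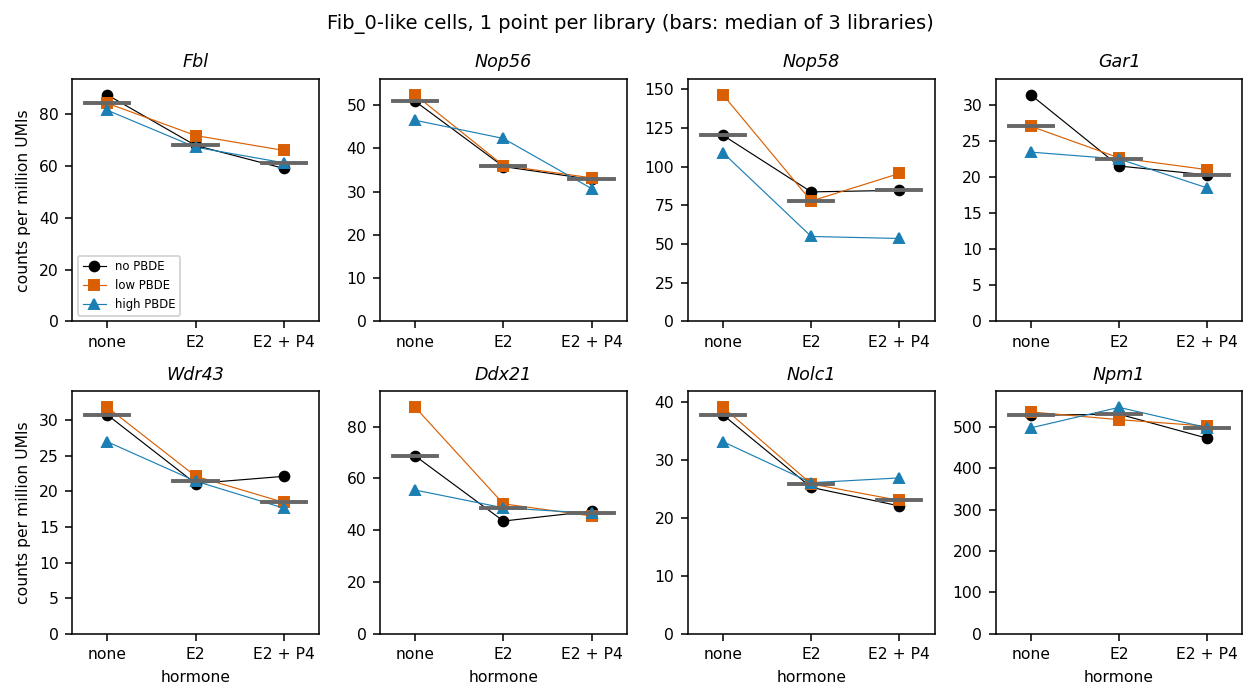
CPM of 8 genes in Fib_0-like cells (vertical axes from 0), 1 point per library, by hormone (none, E2, E2 + P4) and PBDE level (marker and color). Grey bars are the median of 3 libraries. In Fbl, Nop56, Nop58, Gar1, Wdr43, Ddx21 and Nolc1 the 3 points without hormone lie above the 6 with hormone, and in Npm1 (473 to 548 CPM) they do not.

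Of the small subunit genes, Wdr43, a subunit of the complex that couples rRNA transcription to processing, was at 30.7, 31.8 and 27.0 CPM without hormone and at 17.7 to 22.1 CPM (median 21.3) with it. It fell by 0.57 on the log2 scale (SE 0.09, adjusted p = 0.0115), or 32.5%, with no overlap. Bysl, an assembly factor of the small subunit, was at 9.67, 8.89 and 8.69 CPM against 5.93 to 7.4 CPM and gave -0.48 ± 0.09 (adjusted p = 0.0187), also with no overlap. Nop14 was at 35.6, 54.0 and 33.5 CPM against 21.2 to 34.7 CPM. Its groups overlapped through VCD_High_PBDE, and its change was -0.62 ± 0.14 (adjusted p = 0.0293). Nob1, the nuclease that makes the last cut in the small subunit rRNA, was at 20.4, 16.8 and 17.3 CPM against 13.9 to 15.6 CPM. These groups did not overlap, but the change of -0.30 ± 0.08 did not pass (adjusted p = 0.0571). Heatr1, a large scaffold protein of early processing, was at 6.4, 5.05 and 3.78 CPM against 2.87 to 4.43 CPM and gave -0.54 ± 0.16 (adjusted p = 0.0707).

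Of the large subunit genes, Noc2l was at 20.4, 20.7 and 22.7 CPM without hormone and at 16.6 to 20.2 CPM with it, and fell by 0.27 (SE 0.07, adjusted p = 0.0485). Rrp1b was at 6.94, 8.19 and 6.24 CPM against 4.63 to 5.59 CPM and fell by 0.49 (SE 0.12, adjusted p = 0.0444). The groups did not overlap in either gene. Rrs1, which brings in the ribonucleoprotein of the small 5S rRNA, was at 25.5, 26.6 and 23.2 CPM against 15.8 to 24.7 CPM and gave -0.42 ± 0.11 (adjusted p = 0.0539). Pes1, a member of the complex with Bop1 and Wdr12, was at 17.1, 15.8 and 16.4 CPM against 12.4 to 17.7 CPM, overlapped, and gave -0.15 ± 0.08 (adjusted p = 0.277). The Fib_0-like count of 13 depended on which libraries were in the fit. It was 1 without VCD_Low_PBDE, 7 without VCD_Low_E2_P4 (the library with the cells of cluster 15, none of which are in the fit on cluster 0), and 8 without VCD_Vehicle or without VCD_Low_E2. A term for the library set gave 1 as well. In this layout such a term fits VCD_Low_PBDE apart from the other libraries, as leaving it out does. It is therefore not a second check and cannot separate the set from that library. The gene that passed without VCD_Low_PBDE was Nop58, and the median change there was -0.30. The share of all genes that passed in these fits is not given. A lower count here therefore cannot be told apart from fewer calls over all genes.

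Within PBDE levels, the difference of the 38 genes in Fib_0-like cells, on log2(CPM + 1), had a median of -0.44 without PBDE (38 of 38 lower), -0.29 at the low level (36 of 38) and -0.15 at the high level (30 of 38). All genes had medians of -0.02, 0.07 and -0.01. The library sets are the same within the first and the last of these comparisons. In Fib_3-like cells the medians were -0.47 (37 of 38), -0.25 (29 of 38) and -0.04 (19 of 38), while all genes had -0.06, -0.02 and -0.11, so at the high level the 38 genes lay above all genes. In Fib_1-like cells they were -0.18 (29 of 38), -0.09 (24 of 38) and 0.26 (10 of 38), while all genes had 0.04, 0.05 and 0.02, so the sign turned at the high level. In Fib_2-like cells they were -0.13 (21 of 38), 0.14 (15 of 38) and -0.11 (23 of 38), so there the sign turned at the low level, where the median of all genes was 0.091. Each of these comparisons has 1 library without hormone against 2 with it, and none was tested.

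**Figure D3:**
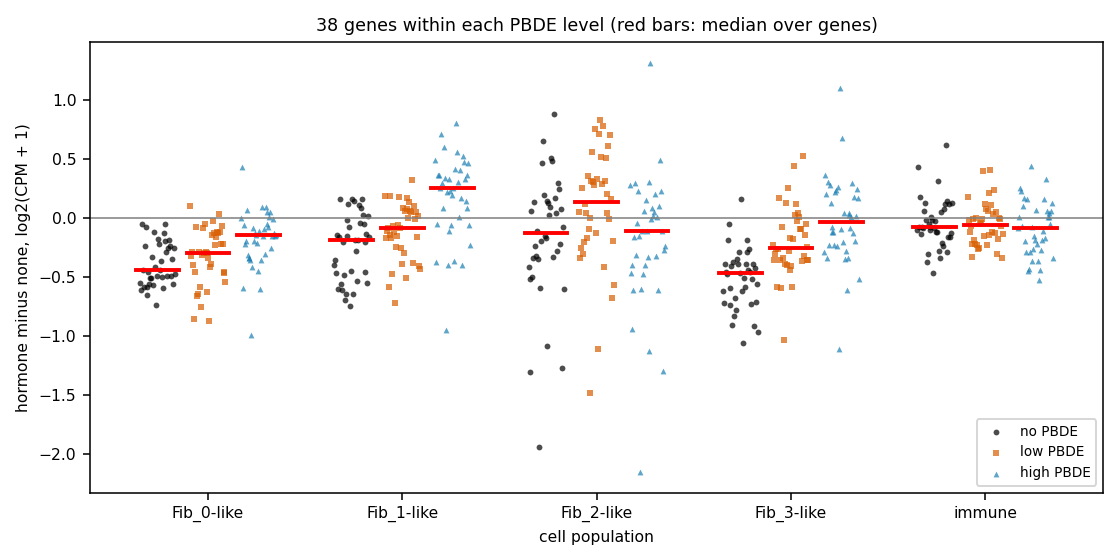
Difference with hormone against none, on log2(CPM + 1), for each of the 38 genes (1 point per gene) within each PBDE level and cell population. Red bars are the medians over genes. In Fib_0-like cells the medians lie at -0.44, -0.29 and -0.15, and in immune cells at -0.07, -0.06 and -0.08.

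In Fib_2-like cells, the subset with Tnc and Mfap4, fewer of the 38 genes passed. By the fitted values, Nop58, Nop14, Rrs1, Myc and Rrp1b changed more than in Fib_0-like cells, while Ddx21 and Ncl did not. Fib_2-like and Fib_0-like cells were not tested against each other alone. Here 7 of 38 (18.4%) fell and none rose, against 16.4% and 16.9% of all 11634 genes, so the share that fell was close to that of all genes. The median change was -0.05 and 20 of the 38 had a negative sign. No overlap was seen in 4 genes (Nop58, Nop14, Rrs1 and Ddx18), against 9.83% of all genes. Nop58 was at 341, 287 and 309 CPM without hormone and at 61.2 to 151 CPM (median 70.2) with it, a change of -1.93 ± 0.19 (adjusted p = 4.29e-05), so that its CPM fell by 73.8%. Nop14, a small subunit factor, was at 46.5, 43.5 and 30.4 CPM against 13.2 to 22.4 CPM (median 19.1), a change of -1.23 ± 0.11 (adjusted p = 2.91e-05). Rrs1 was at 45.7, 32.0 and 40.1 CPM against 12.2 to 26.4 CPM (median 17.5), a change of -1.20 ± 0.14 (adjusted p = 0.000144). In these 3 genes every library with hormone lay below every library without.

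Myc was at 307, 231 and 318 CPM in Fib_2-like cells without hormone and at 85.5 to 234 CPM (median 169) with it. The groups met at VCD_Low_E2 (234 CPM) and VCD_Low_PBDE (231 CPM), and the change was -0.93 ± 0.16 (adjusted p = 0.00165). Ddx21 was at 62.0, 54.9 and 49.8 CPM against 32.2 to 52.4 CPM and fell by 0.55 (SE 0.11, adjusted p = 0.00364). Ncl fell by 0.31 (SE 0.10, adjusted p = 0.0312) and Rrp1b by 0.67 (SE 0.21, adjusted p = 0.0329), both with overlap. The core snoRNP partners of Nop58 did not pass in Fib_2-like cells. Fbl was at 56.1 to 75.8 CPM without hormone and 62.1 to 86.2 CPM with it (log2 change 0.08 ± 0.13, adjusted p = 0.679), Nop56 gave -0.29 ± 0.11 (adjusted p = 0.0613), and Gar1, of the H/ACA particle, gave 0.16 ± 0.18 (adjusted p = 0.526). Polr1b gave -0.62 ± 0.25 (adjusted p = 0.0831).

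The cells gated as Fib_2-like also lay in different clusters with and without hormone. Cluster 14, led by Tnc and Penk, held 78.2 to 93.7% of them in the 3 libraries without hormone and 1.74 to 33.0% in the 6 with hormone. Cluster 11, led by Igfbp2 and Crabp1, held 1.18 to 2.35% without hormone and 42.7 to 72.0% with it, and cluster 10, led by H19 and Frem1, held at most 0.238% without hormone and 11.5 to 35.5% with it. A change within the same cells and a change in which cells fill the gate therefore cannot be told apart in the Fib_2-like sums, and this holds for the comparison with the other subsets as well. At least 30 cells of cluster 14 remained in the 3 libraries with E2 and without P4. Nop58 was at 132, 203 and 73.1 CPM in these cells of VCD_E2, VCD_Low_E2 and VCD_High_PBDE_E2, against 356, 299.9 and 353 CPM without hormone. Nop14 was at 30.3, 26.4 and 13.1 CPM against 48.5, 46.0 and 30.8 CPM, and Myc at 187, 182 and 122 CPM against 308, 229.8 and 308 CPM. These 3 were among 10 of the 38 genes in which the E2 libraries lay below those without hormone within cluster 14, which held for 10.2% of all genes. Rrs1 overlapped, at 29.1, 37.9 and 26.3 CPM against 46.5, 32.1 and 35.7 CPM, and none of these differences was tested. The mean difference of Rrs1 within cluster 14 was -0.29 on log2(CPM + 1), against a log2 change of -0.83 with E2 alone in all Fib_2-like cells. The values rest on 35 to 80 cells per library with E2, and on as few as 7 UMIs of Nop14. The count of 10 rests on fewer still, since it includes Polr1b with 1, 1 and 0 UMIs and Wdr75 with 8, 11 and 3 in these libraries.

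The Fib_2-like cells differed in depth too. Their median UMIs per cell were 8065 to 9731 in the 3 libraries without hormone and 15992 to 26554.5 in the 6 with hormone, and the ranges did not overlap. With each cell thinned to 5000 UMIs, 6 genes fell, among them Nop58 (-1.84), Nop14 (-1.06), Rrs1 (-1.08), Myc (-0.83) and Ddx21 (-0.54), while Ncl gave -0.23 (edgeR, adjusted p = 0.182). Thinning keeps shares, so a lower share there need not mean fewer UMIs per cell. VCD_Vehicle, VCD_E2 and VCD_E2_P4 had 553, 185 and 214 Fib_2-like cells. Their UMIs were 1724, 440 and 369 for Nop58, lower per cell with hormone. They were 231, 78 and 90 for Rrs1, nearly equal per cell, and 1653, 857 and 1637 for Ncl, higher per cell. UMIs per cell were not tested.

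**Figure D4:**
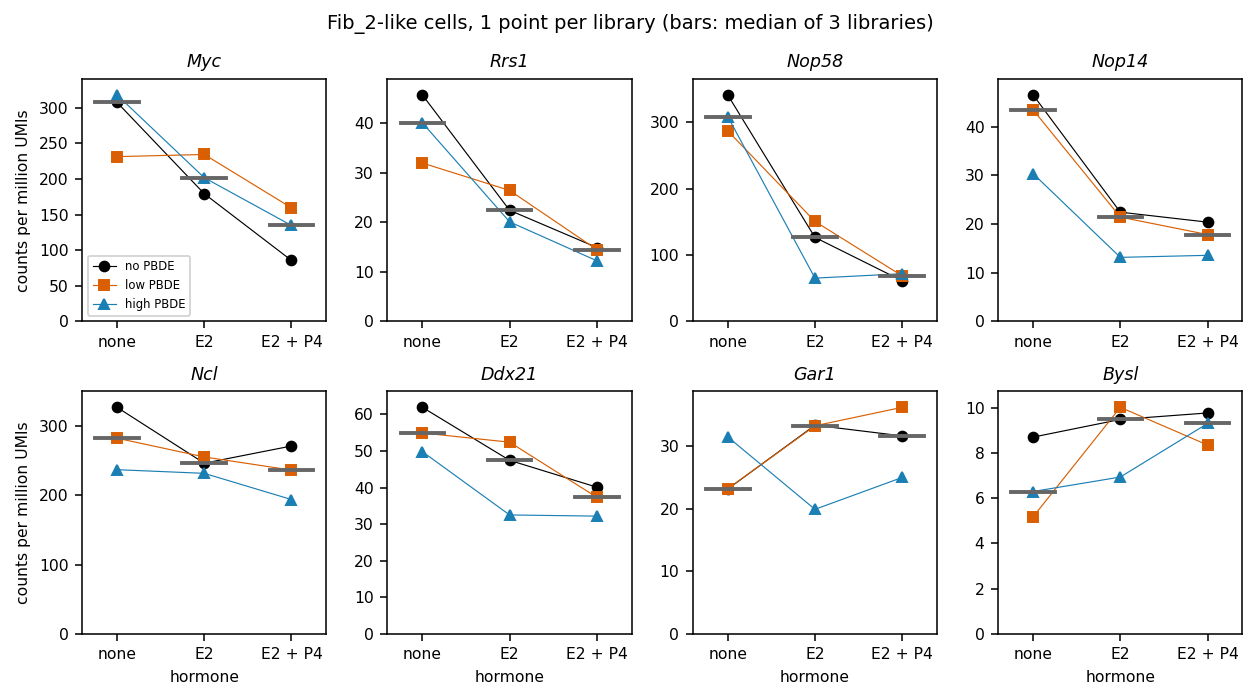
CPM of 8 genes in Fib_2-like cells (vertical axes from 0), 1 point per library, by hormone and PBDE level (marker and color). Grey bars are the median of 3 libraries. Nop58, Nop14 and Rrs1 lie lower in all 6 libraries with hormone, Myc meets at 231 and 234 CPM, and Gar1 and Bysl show no such drop.

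In Fib_1-like cells, which carry Fabp4 and Lpl, 2 of 38 genes (5.26%) fell, against 4.26% of all genes, and none rose, against 5.45%. Cluster 10 held 0.288 to 1.47% of these cells without hormone and 9.9 to 48.3% with it. Nop58 was at 264, 256 and 202 CPM without hormone and at 96.8 to 210.3 CPM (median 129) with it, a change of -0.84 ± 0.12 (adjusted p = 0.00326). Nop14 was at 36.2, 31.6 and 24.0 CPM against a lowest value of 17.6 and a median of 22.8 CPM and gave -0.50 ± 0.10 (adjusted p = 0.0129). Both genes overlapped between groups. No member had all libraries with hormone below those without (3.51% of all genes did). Npm1 alone had all above, as did 945 of all 12037 genes compared. It was at 387 to 510.4 CPM against 284 to 375 CPM, with a change of 0.30 that did not pass (adjusted p = 0.112). The median over the 38 genes was -0.12. The count of 2 was 1 without VCD_Vehicle, 4 without VCD_High_PBDE_E2 and 5 without VCD_High_PBDE.

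In Fib_3-like cells, which carry Gdf10 and F3, edgeR passed 0 of the 38 genes, against 1.29% of all genes lower and 2.62% higher. The sign was nevertheless negative in 33 of 38, with a median of -0.23, and 10 of 38 had an unadjusted p under 0.05, all lower, against 9.04% of all genes lower at that limit. DESeq2 also passed 0, and 1 gene passed without VCD_High_PBDE or without VCD_High_PBDE_E2. Nop58 was at 242, 293 and 223 CPM without hormone and at 137 to 202 CPM with it (log2 change -0.51 ± 0.15, adjusted p = 0.079). Rrp1b was at 7.76, 7.99 and 8.54 CPM against 3.43 to 6.86 CPM (-0.63 ± 0.21, adjusted p = 0.127). The groups did not overlap in these 2 genes, against 5.94% of all genes.

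In immune cells, edgeR passed 0 of the 38 genes, against 0% of all genes lower and 0.00833% higher, so hardly any gene passed in this population. DESeq2 passed 0 members as well, and 3 of 38 had an unadjusted p under 0.05, all lower, against 4.8% of all genes lower at that limit. The median was -0.06. Nop58 was at 99.7, 99.3 and 99.5 CPM without hormone and at 70.8 to 83.5 CPM (median 80.6) with it, and gave -0.34 ± 0.08 (adjusted p = 0.22). Nob1 was at 22.2, 21.5 and 22.8 CPM against 15.5 to 21.1 CPM (-0.29 ± 0.12, adjusted p = 0.472). The groups did not overlap in these 2 genes, against 1.68% of all genes. Immune cells are a mixture whose macrophage-like share ran from 10.1 to 31.8% over the libraries. In macrophage-like cells alone, Nop58 fell by 0.90, the 1 member that passed of 35 tested (0.332% of all genes were lower), and in T-cell-like cells neither a member nor any other gene passed (0% of all genes).

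Across populations, Nop58 passed in 22 of 22 fits in Fib_0-like cells and in 21 of 21 each in Fib_1-like cells and in Fib_2-like cells, which cover the alternative settings of the combined hormone effect and the libraries left out in turn. With E2 alone against no hormone it passed in Fib_0-like and Fib_2-like cells, and gave -0.64 ± 0.15 in Fib_1-like cells (adjusted p = 0.0657). Its values were lower with hormone in every population, and in the 4 populations other than Fib_1-like the groups did not overlap. Nop14, Rrs1, Myc and Ddx21 also passed in 21 of 21 fits in Fib_2-like cells. Other calls were less stable. In Fib_0-like cells Noc2l passed in 6, Rrp1b in 10 and Gar1 in 11 of 22 fits, and in Fib_2-like cells Ncl passed in 8 of 21.

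Of 87 further biogenesis factors, 15 fell in Fib_0-like cells (17.2%, against 4.98% of all genes) and none rose (median -0.17), led by Nol10 (-0.73 ± 0.10, adjusted p = 0.00736), Mphosph10 (-0.55 ± 0.08, adjusted p = 0.00945), Rcl1 (-0.53 ± 0.08, adjusted p = 0.0111) and Naf1 (-0.45 ± 0.07, adjusted p = 0.0119). All 4 act in rRNA processing or snoRNP assembly. Of 14 further genes of the RNA polymerase I machinery none passed in Fib_0-like cells, and of 85 ribosomal protein genes 1 rose and 1 fell (median -0.06). In Fib_2-like cells the ribosomal protein genes held more of the calls, with 40 of 85 ribosomal protein genes lower and 3 higher (median -0.26), 10 of 87 further biogenesis factors lower and 3 higher (median -0.10, against 16.4% and 16.9% of all genes), and, among 14 polymerase I genes, Twistnb (-0.56) and Taf1d (-0.52) lower and Ubtf (0.34) higher. In Fib_1-like cells 4 of 87 biogenesis factors fell (4.6%) and 4 of 85 ribosomal protein genes rose (4.71%), shares close to the 4.26% and 5.45% of all genes, with Taf1d (-0.40) the single polymerase I gene that passed. In Fib_3-like cells 3 ribosomal protein genes rose, against 2.62% of all genes, and in immune cells no gene of these 3 lists passed.

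Among 27 other members of the Myc network and its known targets, 12 rose (44.4%) and 6 fell (22.2%) in Fib_2-like cells, where Myc itself fell and 16.9% and 16.4% of all genes rose and fell, and Srm, the spermidine synthase, rose by 1.33 ± 0.10 (adjusted p = 9.44e-06). In Fib_0-like cells 3 of 27 fell (11.1%, against 4.98% of all genes) and none rose, and in Fib_1-like cells 5 rose (18.5%, against 5.45%) and none fell. Of 12 targets of p53, the stress-sensing transcription factor, 3 rose and 2 fell in Fib_2-like cells, with Cdkn1a at -2.09 ± 0.21, and in Fib_0-like cells 1 rose and 1 fell. In Fib_1-like and in Fib_3-like cells 1 p53 target of 12 fell (8.33%, against 4.26% and 1.29% of all genes) and none rose, and no gene of either list passed in immune cells.

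Genes of dissociation and stress moved with the hormone groups as well. Of 20 such genes 18 fell in Fib_2-like cells (median -1.07), 13 fell in Fib_1-like cells (-0.58), 5 in Fib_3-like cells (-0.28), 2 in Fib_0-like cells (-0.12) and none in immune cells, against 16.4%, 4.26%, 1.29%, 4.98% and 0% of all genes in this order. Their summed level in Fib_2-like cells was 33001 to 40639 CPM without hormone and 13358 to 24090 CPM with it. In Fib_0-like cells the ranges overlapped, at 17985 to 20516 CPM against 15712 to 18822 CPM. Of 20 proliferation genes 10 rose and 2 fell in Fib_2-like cells, 10 rose in Fib_1-like cells, and 3 rose and 1 fell in Fib_0-like cells, against 16.9%, 5.45% and 5.52% of all genes higher and 16.4%, 4.26% and 4.98% lower. Their summed level in Fib_0-like cells was 111 to 118 CPM without hormone and 105 to 236 CPM with it. In Fib_3-like cells 2 of 16 proliferation genes rose (12.5%, against 2.62% of all genes), and in immune cells none passed (0.00833% of all genes were higher). The part of stress genes and proliferation in the differences of the 38 genes was not tested, and that of depth was not tested beyond the fits with thinned cells.

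Whether the hormone effect differed between populations was tested directly, as the effect in 1 fibroblast subset minus the mean of the other 3, or in immune cells minus the mean of the 4 subsets, with library as a block over 45 sums. In Fib_0-like cells 4 of 38 genes were lower than in the other subsets and none was higher (all genes, 6.12% and 6.06%). Fbl differed by -0.39 ± 0.10 (adjusted p = 0.0124), Wdr43 by -0.33 ± 0.09 (adjusted p = 0.0187), Bysl by -0.50 ± 0.15 (adjusted p = 0.0292) and Npm1 by -0.25 ± 0.07 (adjusted p = 0.0206). The Fbl values show how this arose, with a log2 change of -0.39 in Fib_0-like cells beside 0.03, 0.08 and -0.13 in the other subsets, in the order of their numbers. The count of 4 was 0 without VCD_Low_PBDE or without VCD_High_PBDE, and 2 without VCD_E2_P4, without VCD_Low_E2_P4 or with thinned cells.

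In Fib_2-like cells 5 genes had a lower hormone effect than in the other subsets (all genes, 12.4%) and 5 a higher one (all genes, 11.7%). The lower ones were Nop58 (-1.25 ± 0.19, adjusted p = 1.13e-05), Rrs1 (-0.95 ± 0.18, adjusted p = 0.000154), Nop14 (-0.72 ± 0.14, adjusted p = 0.000173), Myc (-0.70 ± 0.21, adjusted p = 0.012) and Ddx10 (-0.42 ± 0.13, adjusted p = 0.0182). The higher ones were Ltv1 (0.58, adjusted p = 0.00159), Bysl (0.56, adjusted p = 0.0421), Bop1 (0.55, adjusted p = 0.0143), Gar1 (0.50, adjusted p = 0.015) and Nip7 (0.41, adjusted p = 0.0147), all of which are assembly or modification factors. None of these 5 passed the hormone test within Fib_2-like cells. With thinned cells 3 were lower and 2 higher, without VCD_Vehicle 3 were lower, and without VCD_Low_PBDE 2 were higher.

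Nop58 had a weaker drop in Fib_3-like cells than in the other subsets (0.70 ± 0.20, adjusted p = 0.0405), the 1 of 38 genes that differed there, against 2.17% of all genes higher and 1.37% lower. In immune cells Nop58 (0.67 ± 0.20, adjusted p = 0.0416) and Nop14 (0.53 ± 0.13, adjusted p = 0.0107) differed from the 4 subsets and no gene was lower (all genes, 2.44% and 2.22%). The means on the other side of these contrasts include the larger drops of Fib_2-like cells, and no contrast without that subset was tested. The differences in Fib_3-like and immune cells were both lost with thinned cells. The Fib_3-like count was 0 without any 1 library other than VCD_Low_E2 or VCD_Low_E2_P4, and the immune count was 0 without VCD_E2_P4 or VCD_Low_PBDE and 1 without VCD_Vehicle, VCD_E2 or VCD_Low_E2_P4. In Fib_1-like cells edgeR and DESeq2 passed 0 of the 38 genes (edgeR over all genes, 0.917% higher and 0.889% lower), 7 had an unadjusted p under 0.05, all higher, as did 6.02% of all genes, and 1 passed without VCD_High_PBDE_E2.

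The progesterone comparison sets E2 + P4 (3 libraries) against E2 (3 libraries) in the same fit and shares these libraries with the hormone comparison. No member passed in any of the 5 populations by edgeR. Of all genes, 0.0389% passed for Fib_0-like, 1.34% for Fib_1-like, 2.43% for Fib_2-like, 0% for Fib_3-like and 0.00833% for immune cells. The medians of the 38 genes were -0.05, 0.07, -0.09, -0.03 and -0.00 in this order. Unadjusted p-values under 0.05 were seen for 0, 3, 4, 2 and 3 of 38 members, against 9.92%, 17.95%, 17.0%, 8.35% and 9.21% of all genes, and DESeq2 passed 2 in Fib_2-like cells (2.59% of all genes) and 0 elsewhere. In Fib_2-like cells Rrs1 was at 22.4, 26.4 and 20.1 CPM with E2 and at 14.9, 14.5 and 12.2 CPM with E2 + P4, with no overlap. Its log2 difference was -0.74 ± 0.17 (adjusted p = 0.0531). Myc was at 179, 234 and 202 CPM with E2 and at 85.5, 159 and 135 CPM with E2 + P4, also with no overlap, and gave -0.73 ± 0.19 (adjusted p = 0.0839). In 9.61% of all genes the libraries with E2 + P4 lay below those with E2. Cluster 14 held 61 of 185, 80 of 244 and 35 of 288 Fib_2-like cells with E2 (no, low and high PBDE). With E2 + P4 it held 6 of 214, 5 of 287 and 6 of 157. Median UMIs per cell were 15992 to 17151.5 with E2 and 18765 to 26554.5 with E2 + P4. A change within the same cells and a change in which cells fill the gate cannot be told apart here either. In Fib_2-like cells 2 genes passed without VCD_Low_PBDE and 1 without VCD_Vehicle or without VCD_High_PBDE_E2, and in Fib_1-like cells 1 passed without VCD_High_PBDE_E2.

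Levels were also compared between populations over all 12 libraries, with library as a block, each fibroblast subset against the mean of the other 3 and immune cells against the mean of the 4. CPM are shares of each population's own RNA. The largest contrast was between immune cells and fibroblasts, where 21 of 38 genes (55.3%) were higher and 5 lower, against 43.0% and 46.0% of all genes. The median was 0.32, against -0.04 for all genes. Of the small subunit genes 7 of 11 were higher, of the large subunit 6 of 11, of the scaffold 3 of 4, of the snoRNPs 3 of 7 and of rRNA transcription 2 of 5.

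Rrp12, which takes part in the export of both subunits, was at 4.13 to 7.71 CPM in immune cells (median 6.07), with medians of 2.44, 2.94, 2.08 and 2.03 CPM in Fib_0-like to Fib_3-like cells, a log2 difference of 1.31 ± 0.12 (adjusted p = 4.27e-14). Its range overlapped that of Fib_1-like cells, which reached 5.87 CPM. Noc2l was at 38.6 to 53.2 CPM in immune cells and at 12.7 to 22.7 CPM over the 4 subsets, with no overlap, and differed by 1.22 ± 0.05 (adjusted p = 1.43e-27). Polr1a, the largest subunit of RNA polymerase I, was at 13.3 to 19.6 CPM against 3.24 to 10.9 CPM and differed by 1.11 ± 0.08 (adjusted p = 5.47e-18). Among the further genes that were higher, Heatr1 differed by 1.02, Nop56 by 0.93, Fbl by 0.91, Ncl by 0.72, Pes1 by 0.70, Wdr43 by 0.58, Npm1 by 0.54 and Nob1 by 0.35. Polr1b (0.05, adjusted p = 0.7) and Dkc1 (0.04, adjusted p = 0.556) did not pass.

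Myc ran the other way. It was at 27.3 to 46.0 CPM in immune cells (median 36.8) and at medians of 198, 311, 233 and 406 CPM in the fibroblast subsets from Fib_0-like to Fib_3-like, and the lowest fibroblast value was 85.5 CPM. The log2 difference of immune cells was -2.99 ± 0.13 (adjusted p = 1.05e-26). Rrs1 (-0.96 ± 0.11, adjusted p = 3.1e-11), Nop58 (-0.91 ± 0.14, adjusted p = 2.89e-08), Wdr75 (-0.51) and Gnl3 (-0.25) were lower as well.

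**Figure D5:**
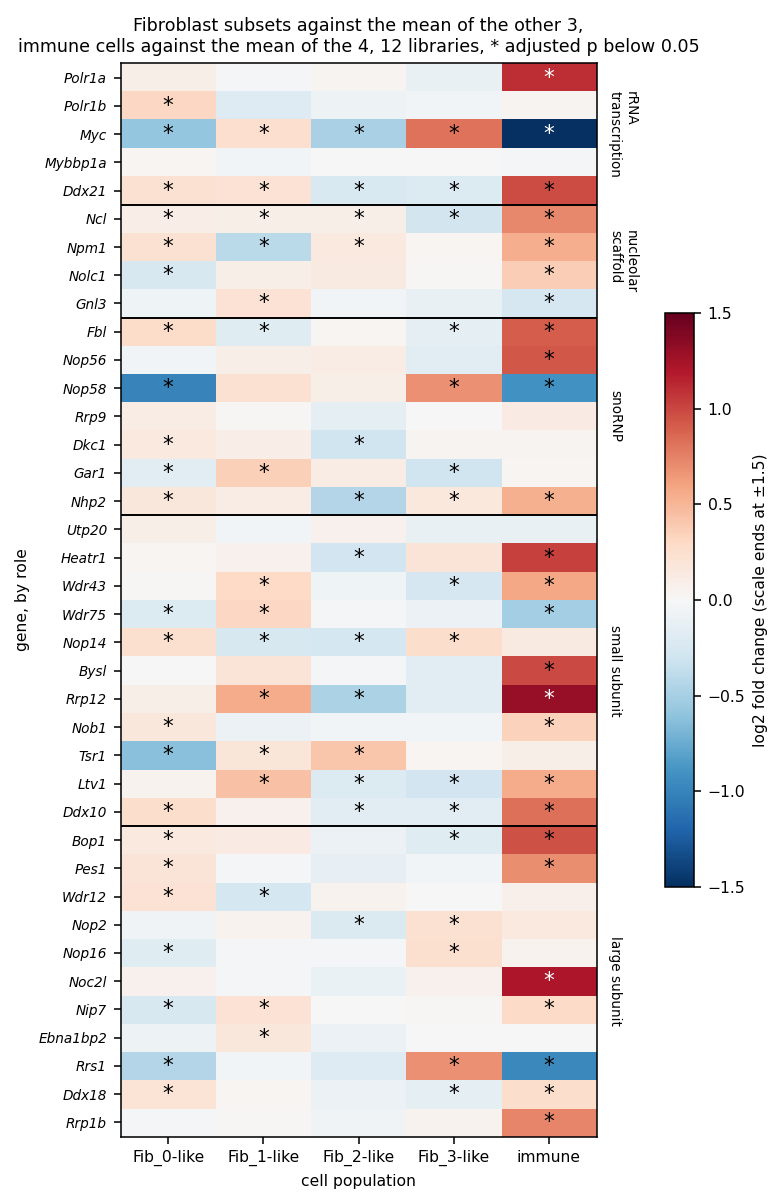
Log2 difference of each of the 38 genes (rows, by role) in each cell population, fibroblast subsets against the mean of the other 3 and immune cells against the mean of the 4, over 12 libraries. Stars mark an adjusted p below 0.05, and the color scale ends at ±1.5. The immune column is red for 21 starred genes and darkest blue for Myc (-2.99), and among fibroblasts Myc, Nop58 and Rrs1 are blue in Fib_0-like and red in Fib_3-like cells.

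Among fibroblasts the differences were smaller and went both ways. In Fib_0-like cells 14 of 38 were higher and 9 lower (all genes, 33.3% and 32.6%), in Fib_1-like cells 12 were higher and 4 lower (25.8% and 28.3%), in Fib_2-like cells 3 and 10 (27.9% and 27.6%) and among Fib_3-like cells 7 and 9 (23.6% and 20.9%). The medians lay between -0.06 and 0.08. Myc, Nop58 and Rrs1 stood at opposite ends in Fib_0-like and Fib_3-like cells. Myc was lower in Fib_0-like (-0.58 ± 0.11, adjusted p = 1.16e-05) and higher in Fib_3-like cells (0.81 ± 0.11, adjusted p = 7.07e-09). Nop58 was at 53.6 to 146 CPM in Fib_0-like cells (SE of the log2 difference 0.14, adjusted p = 8.15e-09) and at 137 to 293 CPM in Fib_3-like cells (0.68 ± 0.13, adjusted p = 1.32e-05). Rrs1 was at 15.8 to 26.6 CPM against 24.4 to 57.6 CPM and gave -0.45 ± 0.10 and 0.68 ± 0.10 (adjusted p = 7.61e-05 and 1.33e-07).

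Fbl was higher in Fib_0-like cells than in the other subsets (0.28 ± 0.05, adjusted p = 4.58e-06), as was Polr1b (0.31 ± 0.10, adjusted p = 0.00465). Tsr1, a late factor of the small subunit, was lower in Fib_0-like (-0.63 ± 0.08) and higher in Fib_2-like cells (0.42 ± 0.08). Npm1 was lower in Fib_1-like cells (-0.40 ± 0.04, adjusted p = 1.86e-12), where Ltv1 (0.44) and Rrp12 (0.56) were higher. Nhp2, of the H/ACA particle, was lower in Fib_2-like cells (-0.44 ± 0.06, adjusted p = 1.31e-08), and so were Dkc1 (-0.29) and Heatr1 (-0.28). Median UMIs per cell differed between populations, at 18574, 16084, 12300 and 13713.5 in the fibroblast subsets (Fib_0-like first) and 7324 in immune cells, and the part of depth was not tested beyond the thinned fit. With thinned cells 7 genes were higher in Fib_0-like and 4 lower in Fib_2-like cells. In Fib_2-like cells 5 were higher without VCD_Low_PBDE, and in Fib_3-like cells 5 were lower without VCD_E2.

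The groups outside this layout have 1 library each and were not tested, and their differences are given on log2(CPM + 1). Against Intact, VCD_Vehicle was higher in 31 of 38 genes in Fib_0-like cells (median 0.17), 29 genes in Fib_1-like cells (0.17), 14 genes in Fib_2-like cells (-0.10), 24 genes in Fib_3-like cells (0.12) and 17 in immune cells (-0.03). These 2 libraries are of the same set. Of their Fib_2-like cells, cluster 14 held 358 of 549 in Intact and 518 of 553 in VCD_Vehicle, and cluster 11 held 132 and 13. The second vehicle library, VCD_Vehicle_NormEnv, was lower than VCD_Vehicle in 32 of 38 genes in Fib_0-like cells (median -0.14), 30 genes in Fib_1-like cells (-0.28), 30 genes in Fib_2-like cells (-0.25), 35 genes in Fib_3-like cells (-0.25) and 25 in immune cells (-0.09). No hormone separates these 2 libraries, they are of different sets, and whether their food or housing differed is not known here. All genes had medians within 0.08 of 0 in these comparisons.

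VCD_E2_ICI, which received ICI beside E2, was lower than VCD_Vehicle in 38 of 38 genes in Fib_0-like cells (median -0.42). The drop was not limited to that subset. The other subsets, in the order of their numbers, had 34, 32 and 35 of 38 genes lower (medians -0.46, -0.17 and -0.52). Immune cells had 21 of 38 lower (median -0.04). Medians of all genes ran from -0.04 to 0.00 over the populations. Within Fib_0-like cells, VCD_E2_ICI lay near VCD_E2 (median -0.07, 24 of 38 lower). Nop58 was at 59.7 CPM (95% Poisson interval 55.0 to 64.7) in VCD_E2_ICI, at 83.7 CPM (79.5 to 88.2) in VCD_E2 and at 120.3 CPM in VCD_Vehicle. These intervals cover counting error only. In Fib_2-like cells Nop58 was at 259.6 CPM (242 to 278) in VCD_E2_ICI against 127 CPM (115 to 139) in VCD_E2, Myc at 386 CPM (365 to 408) against 179 CPM (165 to 194), and Rrs1 at 38.2 CPM (31.9 to 45.5) against 22.4 CPM (17.7 to 28.0). In these 3 genes VCD_E2_ICI lay above VCD_E2 with no overlap of intervals, and Npm1, Gar1 and Nhp2 lay below. That is 3 of 38 above and 3 below, against 7.04% and 11.2% of all genes. Intervals did not overlap for 2 genes in Fib_0-like cells (both below, all genes 11.4% above and 15.7% below), for 6 in Fib_1-like cells (all below, 6.44% and 9.27%), for 5 in Fib_3-like cells (4 above and 1 below, 5.18% and 5.80%), and for none in immune cells (9.10% and 10.2%). Of the Fib_2-like cells, cluster 14 held 209 in VCD_E2_ICI and 61 in VCD_E2, and cluster 11 held 18 and 79, so the cells compared were spread differently over the clusters. The summed level of the stress genes in Fib_2-like cells was 33947 CPM in VCD_E2_ICI and 22479 CPM in VCD_E2, and its part was not tested. Against VCD_E2 the medians were -0.09, -0.10 and -0.04 from Fib_1-like to Fib_3-like cells and 0.07 in immune cells. VCD_E2_ICI is of the second library set and VCD_E2 and VCD_Vehicle are of the first, so the set and the treatment cannot be told apart.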

How the data were processed

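UMI counts per gene and cell barcode, deposited by the authors for 12 libraries, were used without change. Per the labels they come from Chromium Single Cell 3′ v3 libraries, processed with Cell Ranger 3.1.0 on mm10. The labels name a HiSeq and the methods of the study a NovaSeq sequencer. Counts were not normalized by the authors.

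The 38 genes, the other gene lists and the tests were chosen with earlier results of these data known. Lists other than the 38 genes were taken from general knowledge of these pathways.

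Of 58620 barcodes, 46257 passed minimums of 500 genes and 1000 UMIs and a mitochondrial limit of 5%, and 31740 of these lacked any UMI of the 6 negative-selection genes. Each cell was scored by its mean log2 of UMIs per 10000 over 6 markers per cell type. Fibroblasts scored at least 2 over the fibroblast markers, and took the subset whose scaled score led the next by at least 0.5 SD with at least 3 of 6 markers detected. Immune cells scored at least 1.5 over the immune markers and were not part of the negative selection. Of the fibroblasts, 6864 stayed ungated, and 2349 cells (7.5%) lay near the margin. A difference from the cell groups of the study may come from these rebuilt names. Doublets were not called. An alternative without likely doublets dropped 2040 cells, at 0.8% per 1000 barcodes.

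Counts were summed per library and population and tested with edgeR 4.0.16 (TMM, filterByExpr, glmQLFit and glmQLFTest, R 4.3.3) at an adjusted p of 0.05, with hormone and PBDE as additive factors over 9 libraries, leaving 4 residual degrees of freedom. Population differences used 60 sums and differences of the hormone effect 45 sums, with library as a block. Cells of 1 library are not replicates. On simulated counts with 200 changed genes, the hormone fits recovered 82, 78.5, 79.5 and 73.5% in the fibroblast subsets (Fib_0-like first) and 75% in immune cells, over 11331 to 12785 genes. The population fit recovered 100% (12994 genes) and the fit of differences of the hormone effect 75% (13760 genes). Every changed gene was set 1 higher or lower on the log2 scale, with a fixed spread and no effect of library or PBDE beyond depth. These shares therefore do not hold for the smaller changes of most members. Unchanged genes were called too, 4 to 13 per hormone fit, 3 in the population fit and 11 in the fit of differences. CPM are UMIs per 1000000 UMIs of the summed cells, over 1745869 to 27102723 UMIs per sum of a fibroblast subset and 2983582 to 10547256 per sum of immune cells, and those of a single library carry exact 95% Poisson intervals, which cover counting error only. Library differences without a test used log2(CPM + 1).

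Members past the threshold were named, at most 15 per comparison, and at most 4 genes of another list by smallest p. Fixed representatives were Myc, Polr1b, Ncl, Npm1, Fbl, Nop56, Nop58, Dkc1, Heatr1, Wdr43, Nob1, Pes1 and Rrs1. In the comparisons of populations the members named are a selection and not always those with the largest log2 differences. Not every representative is given for every population. Genes that did not overlap between groups were named after their values were seen, as were single genes in the comparisons without a test. Alternatives were DESeq2 1.42.0 and its size factors, other filters, a mitochondrial limit of 10%, clusters, a gate margin of 1 SD and doublets removed. Others were ribosomal protein genes left out of the totals, cells weighted equally, E2 alone and macrophage-like and T-cell-like cells apart. The rest were VCD_Vehicle_NormEnv added as if without PBDE, a term for library set, and each library left out. Clusters were made with scanpy 1.11.5 (3000 variable genes, 30 components, 20 neighbors, resolution 1), without the 38 genes and without the genes of the other lists. Thinning 27233 cells to 5000 UMIs, with 3677 shallower cells left out, was added after seeing the data, as were the values within the low PBDE level and within clusters 0 and 14. Promoters are from RefSeq on GRCm38.p6. The T-cell markers Trbc2 and Trac and the B-cell marker Ighm were not used here.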

Additional observations from a re-analysis of the deposited data

Results flagged for a closer look

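These 17 hormone effects differed between cell populations by the test of the difference itself (edgeR, library as block, Benjamini-Hochberg over all genes, adjusted p below 0.05). Each value is the log2 hormone effect in the named population minus the mean over the other 3 fibroblast subsets, or, for immune cells, minus the mean over the 4 subsets. Of the 38 genes, 4 were lower in Fib_0-like cells (6.12% of all genes) and 5 lower and 5 higher in Fib_2-like cells, where 12.4% and 11.7% of all genes were, so the Fib_2-like shares were close to those of all genes. In Fib_3-like cells 1 was higher (2.17% of all genes) and in immune cells 2 (2.44%). In Fib_0-like cells the effect was lower for Fbl (-0.39), Npm1 (-0.25), Bysl (-0.50) and Wdr43 (-0.33). In Fib_2-like cells, which lay mostly in other clusters with hormone than without, it was lower for Nop58 (-1.25), Rrs1 (-0.95), Nop14 (-0.72), Myc (-0.70) and Ddx10 (-0.42), and the effect was higher for Ltv1 (0.58), Bysl (0.56), Bop1 (0.55), Gar1 (0.50) and Nip7 (0.41). Nop58 had a weaker drop in Fib_3-like cells (0.70) and in immune cells (0.67), and so had Nop14 in immune cells (0.53). The means they were set against include the larger drops of Fib_2-like cells. Groups hold 1 library each, so no sample could be checked against others of its own group.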

How the results depend on the processing

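The labels give no replicate numbers, so no samples were paired by number, and PBDE level and library served as factors. Over the alternatives that gave this value and left-out libraries, the median log2 change with hormone of the 38 genes ran from -0.44 to -0.15 in Fib_0-like, -0.21 to 0.26 in Fib_1-like, -0.25 to 0.14 in Fib_2-like, -0.47 to -0.04 in Fib_3-like and -0.18 to 0.02 in immune cells. It turned positive in Fib_1-like cells within the high PBDE level (0.26), in immune cells with thinned cells (0.015) and in T-cell-like cells (0.024), and in Fib_2-like cells within the low PBDE level (0.14), with thinned cells (0.033) and without VCD_High_PBDE (0.036). In the Fib_2-like cells of cluster 14 alone, with E2 against none, it was -0.25. For the named genes that passed, 241 of the hormone values kept the call under an alternative other than a left-out library and 57 lost it, 145 and 25 of the differences of the hormone effect, and 351 and 18 of the population differences. With 1 library left out, 145 hormone values kept the call and 53 lost it, 110 and 43 of the differences, and 412 and 32 of the population differences. None of these turned direction. The cause of these changes was not tested.

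The number of members lower with hormone moved in Fib_0-like cells to 7 in the cells of cluster 0 and 8 with E2 alone. It was 1 there with a library set term, which in this layout amounts to leaving out VCD_Low_PBDE. In Fib_1-like cells it moved to 1 with clusters, 1 with the stricter gate and 0 with E2 alone, and in Fib_2-like to 3 with E2 alone. In Fib_3-like cells it was 5 with no filter on low counts, 1 with clusters and 1 with VCD_Vehicle_NormEnv added, and 1 in macrophage-like cells. In Fib_2-like cells the progesterone count of 0 became 2 with DESeq2, 3 with no filter, 3 with clusters, 1 with doublets removed and 2 with a set term. Population counts moved to 7 higher in Fib_0-like with thinned cells, 6 lower in Fib_2-like under a 5 CPM minimum mean and 4 lower with thinned cells, and 5 higher in Fib_2-like with clusters. Lower differences of the hormone effect in Fib_0-like were 2 with no filter, 1 with clusters and 2 with thinned cells. With thinned cells they were 3 lower and 2 higher in Fib_2-like, and 0 higher in Fib_3-like and in immune cells. Higher ones in immune cells were 1 with DESeq2 size factors and 1 with the stricter gate. For most of these settings the share of all genes that passed is not given. Whether a count moved with the calls over all genes is then not known here.

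With 1 library left out, members lower with hormone numbered 1 to 16 in Fib_0-like, 1 to 5 in Fib_1-like, 5 to 8 in Fib_2-like, 0 to 1 in Fib_3-like and 0 in immune cells, and members higher 0 to 2 in Fib_2-like cells and 0 elsewhere. Progesterone counts were 0 to 1 in Fib_1-like and 0 to 2 in Fib_2-like cells and 0 elsewhere. Population counts were 12 to 15 higher and 8 to 9 lower in Fib_0-like, 9 to 14 and 4 in Fib_1-like, 2 to 5 and 7 to 11 in Fib_2-like, 5 to 7 and 5 to 11 in Fib_3-like, and 21 to 24 and 5 in immune cells. Differences of the hormone effect were 0 higher and 0 to 5 lower in Fib_0-like, 0 to 1 and 0 in Fib_1-like, 2 to 7 and 3 to 5 in Fib_2-like, 0 to 1 and 0 in Fib_3-like, and 0 to 3 and 0 in immune cells. A library left out of a hormone fit leaves 3 residual degrees of freedom, so calls over all genes may change too. The share of all genes that passed with a library left out is not given for any population. These ranges therefore do not separate a change in the members from a change over all genes. Depth limits genes at a few CPM, such as Rrp12, which ran from 0 to 3.19 CPM in Fib_2-like cells.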
